A study of Mus musculus with 20 samples.

Results

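The 9 epithelial tight junction genes described here were *Cldn1*, *Cldn4*, *Cldn7*, *Cldn23*, *Ocln*, *Tjp1*, *Tjp3*, *F11r* and *Cgn*. They were listed by symbol, and all 9 were found among the 24552 genes of the deposited table. They were measured in the corneal epithelium of 20 female, naïve, wild-type C57BL/6J mice, with 5 animals at each of 4 ages. The ages were 2 to 3 months (young), 12 to 13 months (12-month), 18 to 19 months (18-month) and 24 to 25 months (24-month). Each library held the epithelium that was scraped from both eyes of 1 animal, and no animal was treated or wounded. The mice were bought, aged in house or received from a national aging colony, and which of these supplied each sequenced animal is not given in the sources used here.

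Tight junctions seal the space between the outermost cells of the corneal epithelium and hold tears, microbes and dyes out of the cornea. Claudins and occludin cross the membrane and meet their partners on the next cell, junctional adhesion molecules help to place the complex, and zonula occludens proteins and cingulin tie it to the actin cytoskeleton from inside. The junctions lie in the apical cells of a layered tissue, so that a scrape of the whole epithelium also holds many cells that do not form them.

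The files hold 6699383 to 10762360 reads on genes per library, with group medians between 7859652 and 8947693 reads. Values are normalized counts, which are reads divided by a size factor of the library. Each library was sequenced from the 3′ end of its transcripts, and levels of different genes were not ranked against each other. All 9 genes passed the filter for testing, a mean normalized count of at least 10, as did 11288 genes in all. Summed over 6 corneal epithelial markers, including the corneal keratin *Krt12*, the normalized counts were 380100 to 489900 in the young libraries and 415000 to 453700 in the 24-month libraries. Summed markers of stromal keratocytes, the fibroblasts under the epithelium, were 1671 to 4407 in the young group and 325 to 1036 at 24 months, and 3 of 6 tested were called lower (*Col1a1*, *Col1a2* and *Dcn*). Summed markers of the conjunctiva were 28940 to 50520 in the young group and 25060 to 30170 at 24 months, and 1 of 4 tested was called lower (*Krt4*). Most of that sum was *Krt13* (mean normalized count 28030, against 2586 for *Krt4*), which was not called (adjusted p = 0.378). The 3 markers of the apical layer that were in the table (*Muc1*, *Muc4* and *Muc20*) summed to 15500 to 22430 in the young group and 12820 to 17170 at 24 months, with 0 of 3 called. *Muc4* made up most of this sum (mean normalized count 14680). The 6 leukocyte markers summed to 262 to 369 and 153 to 246 in these groups, with 0 of the 5 tested called. Of all tested genes, 0.78% were called at 24 months against the young group. At that share, 0 of 3 and 0 of 5 are not results about these markers. The estimates lay below 0 for 2 of 3 apical and 5 of 5 leukocyte markers. Fewer cells of a type and less RNA per cell cannot be told apart in such libraries, and the part of these shifts in the values of the tight junction genes was not tested.

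The window before the start of transcription was read for 8 of the 9 genes from RefSeq, build GRCm38.p6. The windows of 4 genes are shown because their genes stood out in the values given next. *Cgn* and *Tjp3* varied most closely with *Cldn23* between animals, and *Cldn4* and *Tjp1* had the smallest p-values between the 24-month and young groups. Each runs 5′ to 3′ on the strand of its gene, and the capitals mark GGGCGG or its reverse complement, the GC box that Sp1 and related factors bind.
Cgn: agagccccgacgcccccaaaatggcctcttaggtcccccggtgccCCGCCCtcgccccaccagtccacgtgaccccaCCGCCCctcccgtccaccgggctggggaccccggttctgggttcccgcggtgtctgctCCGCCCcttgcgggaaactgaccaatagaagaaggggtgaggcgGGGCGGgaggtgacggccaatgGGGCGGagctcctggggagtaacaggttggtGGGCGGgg
Tjp3: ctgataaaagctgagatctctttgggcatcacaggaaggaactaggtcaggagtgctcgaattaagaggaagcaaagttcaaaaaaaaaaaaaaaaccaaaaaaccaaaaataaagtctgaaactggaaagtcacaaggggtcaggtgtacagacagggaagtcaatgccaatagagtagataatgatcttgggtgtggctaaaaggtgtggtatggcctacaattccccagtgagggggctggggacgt
Cldn4: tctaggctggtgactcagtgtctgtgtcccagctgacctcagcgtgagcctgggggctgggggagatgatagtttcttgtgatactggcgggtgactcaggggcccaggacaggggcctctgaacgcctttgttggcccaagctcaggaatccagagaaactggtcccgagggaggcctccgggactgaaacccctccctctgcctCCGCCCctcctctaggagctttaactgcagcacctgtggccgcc
Tjp1: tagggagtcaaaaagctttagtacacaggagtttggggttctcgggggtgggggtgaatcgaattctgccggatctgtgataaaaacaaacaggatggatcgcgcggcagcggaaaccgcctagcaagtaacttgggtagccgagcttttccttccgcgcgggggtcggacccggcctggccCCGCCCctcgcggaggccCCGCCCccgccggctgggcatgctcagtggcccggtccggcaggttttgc
The windows lie on the minus strand at chr3:94786493-94786732 for *Cgn*, chr10:81291582-81291831 for *Tjp3*, chr5:134946935-134947184 for *Cldn4* and chr7:65371245-65371494 for *Tjp1*. The *Tjp1* window is intronic in the longest annotated span of that gene. The *Cgn* window lies inside the RefSeq span of its gene, which is the span given with the values, and before the first exon of the transcripts that GENCODE lists. It stops where GENCODE places that exon, after 240 bases, and the others hold 250 bases. In the full 250 bases, *Cgn* held 6 GC boxes, *Tjp1* held 2, *Cldn4* held 1 and *Tjp3* held 0. The 8 genes had 11 windows, and a GC box was present in 8 of the 11, compared with 32.7% of all 32851 windows of this length. Those 8 windows belonged to 7 genes. Windows of the same gene are not independent, and those of *Ocln* overlap. These windows were also richer in G and C, with a median GC content of 60.0% (43.2 to 70.4) against 52.4% over all windows, and the part of GC content in this count was not tested. CACCTG, the E box that Snail and Zeb repressors bind, was found in 6 of the 11, from 5 genes, and in 17.2% of all windows. The grainyhead core CCGGTT was found in 3 of the 11 and in 5.62% of all windows, and the AP-1 motif TGANTCA in 2 of the 11 and in 6.75% of all windows. The part of GC content in the counts of these other motifs was not tested either. Both strands were searched. The E box shares no full match with the other motifs.

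The question was whether the epithelial tight junction genes differed between ages, and in no comparison did any of the 9 pass the test. A gene was called where its levels differed by 1.2-fold or more with an adjusted p of at most 0.05. Against the young group, 0 of 9 were called at 12 months (background 0.532% of all tested genes), 0 of 9 at 18 months (0.673%) and 0 of 9 at 24 months (0.78%). Between aged groups, 0 of 9 were called for 18 vs. 12 months (0.00886%), 24 vs. 12 months (0.195%) and 24 vs. 18 months (0%). In the last comparison 0 genes in all were called by limma, with 599 at an unadjusted p under 0.05. For all 15 aged libraries against the 5 young ones, 0 of 9 were called (1.01%). A test for any difference among the 4 ages called 0 of 9 (0.904%), and a test for a steady change per year of age called 0 of 9 (0.718%). At these background shares, 0 called among 9 genes is not a result about these genes.

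At an unadjusted p under 0.05, 2 of 9 genes passed at 12 months (9.56% of all tested genes), 0 of 9 at 18 months (7.18%), 1 of 9 at 24 months (9.97%), 1 of 9 for 18 vs. 12 months (7.43%), 4 of 9 for 24 vs. 12 months (14.7%) and 0 of 9 for 24 vs. 18 months (5.31%). The members were those named in the next paragraphs. In no comparison with the young group, and not between 24 and 12 months, were the libraries of the groups apart without overlap for any of the 9 genes. That held for 1.98% of all tested genes in the 12-month comparison with the young group, 2.05% in the 18-month one, 2.81% in the 24-month one, and 3.24% for 24 vs. 12 months.

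**Figure D1:**
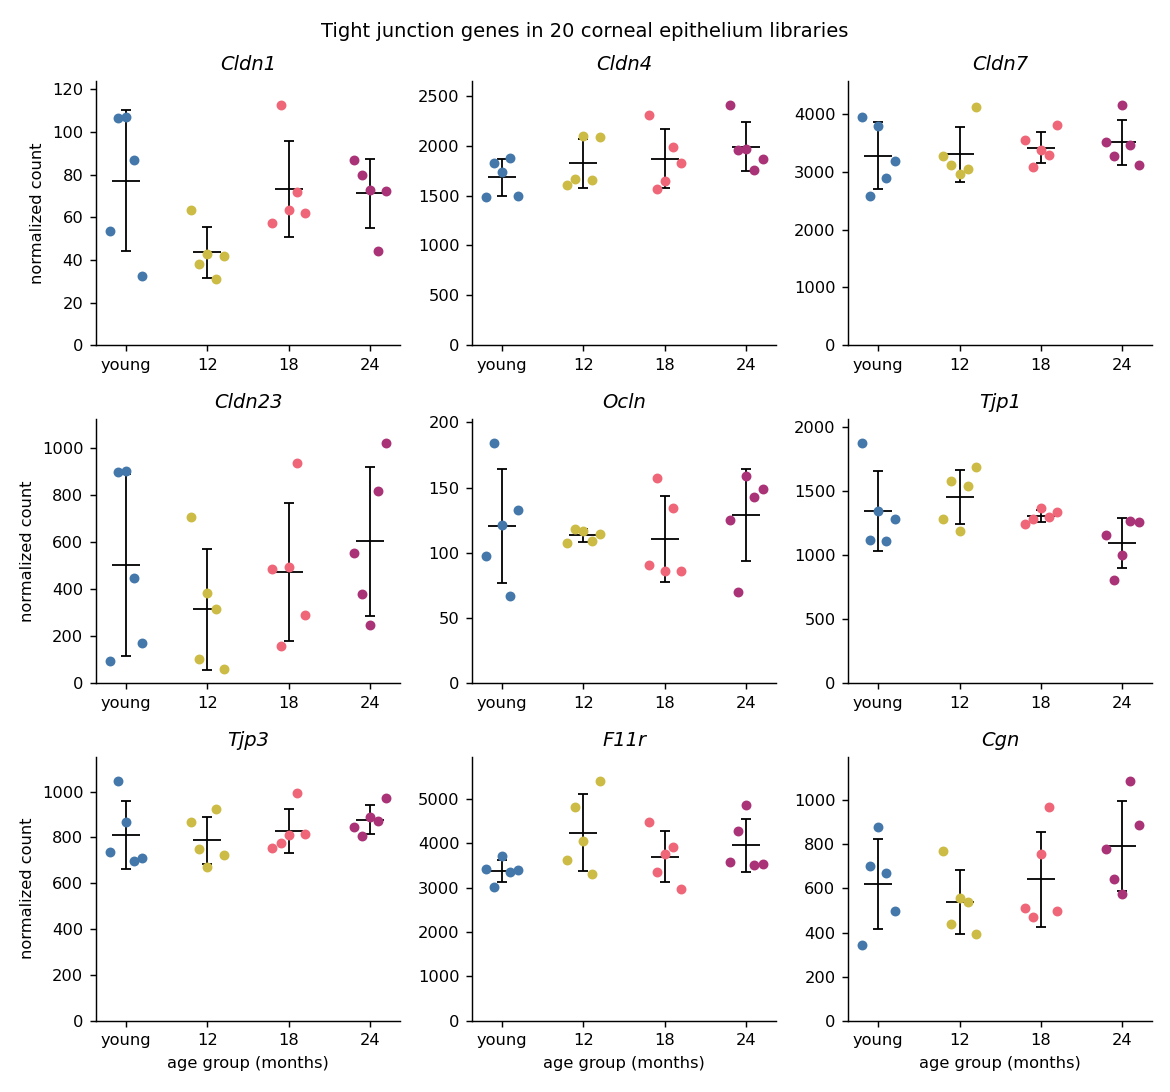
Normalized counts of the 9 genes (y axis, from 0) in each library, by age group (x axis, months), points are the 5 animals of a group and the bars are the mean ± SD. The groups overlap in every panel, and *Cldn23* runs from 59.9 to 1023 normalized counts over the 20 libraries.

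Among the claudins, *Cldn4*, a claudin of sealing epithelia, had means in the order of age from young to 24 months, as did *Cldn7*. It is a gene of 1 exon on chromosome 5 (134945123 to 134946934). In replicates 1 to 5, its normalized counts were 1481, 1821, 1739, 1874 and 1492 in the young group, 1609, 1665, 2098, 1654 and 2089 at 12 months, 2310, 1569, 1648, 1988 and 1824 at 18 months, and 2406, 1959, 1968, 1756 and 1863 at 24 months. At 24 months, 3 libraries exceeded the highest young one, and the other two lay inside the young range. The means went from 1681 ± 184 (SD, n = 5) in the young group to 1990 ± 248 at 24 months, and neighbouring ages did not differ beyond their spread. The 24-month level was 1.18-fold the young level (95% interval 0.995 to 1.41, log2 change 0.24, SE 0.12, adjusted p = 0.514), and the exact two-sided permutation test gave p = 0.0397. The slope was 0.13 on the log2 scale per year of age (SE 0.06, adjusted p = 0.501).

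*Cldn7*, which also lines the sides of epithelial cells, is a gene of 4 exons on chromosome 11 (69964779 to 69967886). Its normalized counts were 3940, 2573, 3795, 2894 and 3179 in the young group, 3270, 3109, 2957, 3050 and 4128 at 12 months, 3541, 3074, 3382, 3295 and 3802 at 18 months, and 3522, 3279, 4153, 3466 and 3112 at 24 months. The 4 groups overlapped almost fully. At 24 months the level was 1.08-fold the young level (0.911 to 1.28, adjusted p = 0.811, exact permutation p = 0.452), so that a change of 2-fold in either direction lay outside its interval.

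*Cldn1*, the claudin best known from the barrier of the skin, is a gene of 4 exons on chromosome 16 (26356645 to 26371839), and 29 to 142 reads stood behind each value. Its normalized counts were 53.7, 106, 107, 86.9 and 32.2 in the young group, 63.4, 38.1, 42.9, 31.1 and 42.0 at 12 months, 57.3, 113, 63.5, 71.7 and 61.9 at 18 months, and 86.8, 79.7, 72.8, 44.4 and 72.5 at 24 months. The 12-month libraries were the lowest on average, at 43.5 ± 12.1 (SD, n = 5) against 77.2 ± 33.2 in the young group, and 1 of them lay below every young library. The 12-month level was 0.607-fold the young level (0.382 to 0.964, log2 change −0.72, SE 0.33, unadjusted p = 0.0354, adjusted p = 0.469). It was lower than the 18-month level (log2 change 0.74 for 18 vs. 12 months, unadjusted p = 0.032, adjusted p = 0.661) and the 24-month level (0.70 for 24 vs. 12 months, unadjusted p = 0.0397, adjusted p = 0.316) by amounts that did not pass the test. The 24-month and young groups gave 0.988-fold (0.622 to 1.57, adjusted p = 0.995, exact permutation p = 0.992).

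*Cldn23*, the least studied claudin of the list, is a gene of 1 exon on chromosome 8 (35824709 to 35826559). Its normalized counts in replicates 1 to 5 were 95.4, 901, 903, 447 and 171 in the young group, 707, 104, 381, 316 and 59.9 at 12 months, 485, 158, 494, 935 and 291 at 18 months, and 552, 380, 247, 818 and 1023 at 24 months. Low and high libraries stood side by side at every age, with the highest value 4.14 to 11.8 times the lowest of the same age. The means were 504 ± 387 (SD, n = 5), 314 ± 259, 473 ± 294 and 604 ± 317 in the order of age. The 24-month level was 1.49-fold the young level (0.642 to 3.44, log2 change 0.57, SE 0.59, adjusted p = 0.802, exact permutation p = 0.452) and 2.40-fold the 12-month level (1.04 to 5.56, log2 change 1.26, SE 0.59, unadjusted p = 0.0412, adjusted p = 0.319). Without young replicate 1 the log2 change at 24 months was 0.0963 and without young replicate 3 it was 0.904, and leaving out single libraries gave −1.17 to −0.225 for the 12-month group against the young group. Between 47 and 1202 reads stood behind each value. Counting error at the mean number of reads was 0.0637 on the log2 scale, and the SD between animals of one age was 1.2. Animal, scrape and library preparation cannot be told apart here.

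Occludin, encoded by *Ocln*, is a gene of 9 exons on chromosome 13 (100496504 to 100552718) whose protein lies in the same strands as the claudins. Its normalized counts were 97.6, 184, 122, 66.8 and 133 in the young group, 108, 118, 117, 109 and 115 at 12 months, 90.2, 157, 85.8, 134 and 86.1 at 18 months, and 125, 69.9, 159, 143 and 149 at 24 months. The 12-month libraries lay close together inside the young range. The 24-month level was 1.09-fold the young level (0.747 to 1.58, adjusted p = 0.930, exact permutation p = 0.714).

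*F11r* encodes junctional adhesion molecule A, which helps to recruit polarity proteins to the junction, and is a gene of 10 exons on chromosome 1 (171437561 to 171464593). Its normalized counts were 3429, 3022, 3718, 3358 and 3409 in the young group, 3617, 4823, 4045, 3310 and 5417 at 12 months, 4489, 3357, 3766, 3912 and 2981 at 18 months, and 3591, 4278, 4861, 3520 and 3544 at 24 months. The highest young value was exceeded by 3 of the 12-month, 3 of the 18-month and 2 of the 24-month libraries, and 1 of the 18-month libraries lay below every young one. The young group had the lowest mean, 3387 ± 248 (SD, n = 5), and the 12-month group the highest, 4242 ± 869. The 12-month level was 1.24-fold the young level (1.03 to 1.48, unadjusted p = 0.0266, adjusted p = 0.429) and the 24-month level was 1.16-fold (0.966 to 1.40, adjusted p = 0.615, exact permutation p = 0.0794). All 15 aged libraries against the young group gave a log2 change of 0.21 (SE 0.11, adjusted p = 0.653).

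*Tjp1* encodes zonula occludens 1, the scaffold under the claudin strands, and is a gene of 28 exons on chromosome 7 (65296165 to 65527850). Its normalized counts were 1878, 1120, 1345, 1112 and 1283 in the young group, 1286, 1577, 1189, 1537 and 1687 at 12 months, 1246, 1283, 1371, 1296 and 1335 at 18 months, and 1156, 805, 999.9, 1263 and 1262 at 24 months. The 24-month group was the lowest, at 1097 ± 196 (SD, n = 5) against 1455 ± 209 at 12 months, and 3 of its libraries lay below every 12-month library and 2 below every young library. The 24-month level was 0.750-fold the 12-month level (0.614 to 0.916, log2 change −0.42, SE 0.14, unadjusted p = 0.00645, adjusted p = 0.178). It was 0.819-fold the young level (0.670 to 1.00, unadjusted p = 0.049997, barely under 0.05, adjusted p = 0.502, exact permutation p = 0.175). The test for any difference among the ages gave an unadjusted p of 0.044 and an adjusted p of 0.431. *Tjp1* was the only member with a negative slope on age, −0.15 on the log2 scale per year (SE 0.08, adjusted p = 0.542).

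*Tjp3* encodes zonula occludens 3, a related scaffold found in epithelia, and is a gene of 21 exons on chromosome 10 (81273188 to 81291581). Its 3′ end overlaps that of *Apba3* on the opposite strand by 40 bases, and whether the counting used strand is not given in the sources used here. The normalized counts were 734, 1048, 869, 695 and 710 in the young group, 867, 750, 672, 923 and 722 at 12 months, 752, 778, 809, 995 and 815 at 18 months, and 844, 808, 888, 872 and 974 at 24 months. The 24-month libraries all lay inside the young range. The level was 1.09-fold that of the young group (0.912 to 1.31, adjusted p = 0.792, exact permutation p = 0.325).

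*Cgn* encodes cingulin, which links zonula occludens proteins to the cytoskeleton, and is a gene of 21 exons on chromosome 3 (94760069 to 94787725). Its normalized counts in replicates 1 to 5 were 345, 704, 877, 670 and 496 in the young group, 770, 441, 558, 539 and 394 at 12 months, 510, 469, 756, 969 and 499 at 18 months, and 777, 641, 575, 1089 and 887 at 24 months. The 24-month group had the highest mean, 794 ± 204 (SD, n = 5), and the 12-month group the lowest, 540 ± 145, with 3 of the 24-month libraries above every 12-month library. The 24-month level was 1.47-fold the 12-month level (1.06 to 2.04, log2 change 0.56, SE 0.23, unadjusted p = 0.023, adjusted p = 0.268) and 1.31-fold the young level (0.946 to 1.82, adjusted p = 0.602, exact permutation p = 0.214).

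For the 9 genes, exact tests of 24-month against young libraries were made, each over all 252 splits of 10 libraries, and the smallest p that they can give is 0.00794. These p-values were not adjusted. Each places the difference between the groups among the differences under all 252 splits of the same libraries. Animal, scrape and library preparation cannot be told apart in the spread between these libraries.

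**Figure D2:**
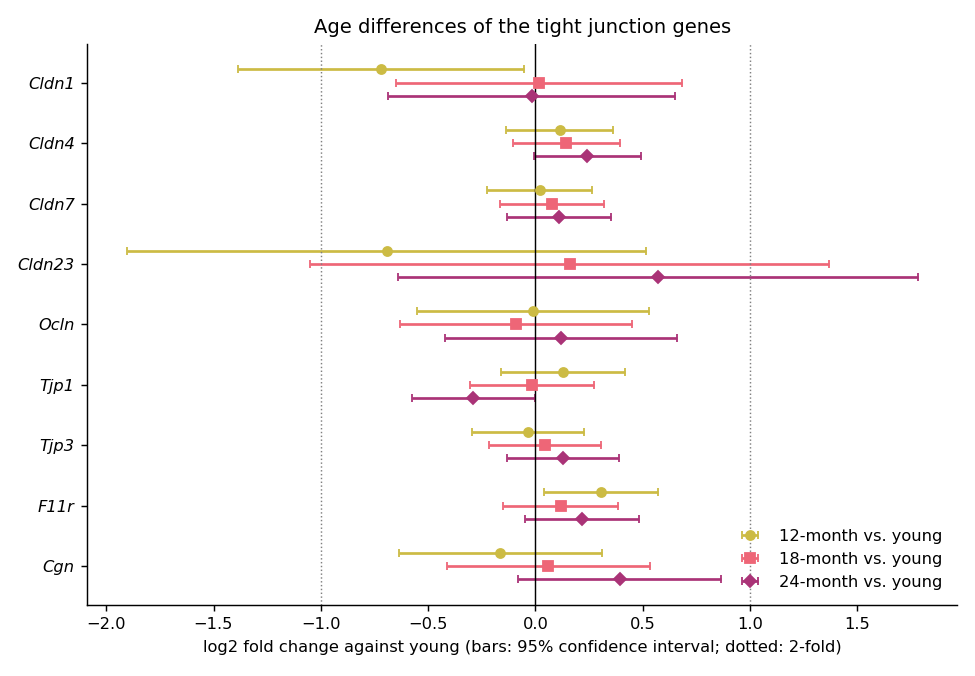
Log2 fold change of each gene at 12, 18 and 24 months against the young group (x axis, 0 is no change, dotted lines at 2-fold), symbols are the limma estimates and bars their 95% confidence intervals. For 8 of 9 genes the 24-month interval lies within 2-fold, and the interval of *Cldn23* reaches 3.44-fold.

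The intervals give the size of change that these data leave possible. Against the young group, the 95% interval lay within 2-fold in either direction for 7 of 9 genes in the 12-month comparison and for 8 of 9 in both later ones. The exceptions were *Cldn1* and *Cldn23* at 12 months and *Cldn23* at the later ages. At 24 months 7 of 9 estimates were above 0 and 2 below, with a median log2 change of 0.13 over the members and 0.01 over all tested genes. The median size of the change without its sign was 0.22 for the members and 0.20 for all tested genes. At 18 months the changes against the young group ran from −0.09 for *Ocln* to 0.16 for *Cldn23*, with adjusted p-values of 0.913 or more. From 18 to 24 months they ran from −0.27 for *Tjp1* to 0.41 for *Cldn23*, with adjusted p-values of 0.919 or more. The changes of all aged libraries together against the young group ran from −0.24 for *Cldn1* to 0.21 for *F11r*, with adjusted p-values of 0.653 or more. All comparisons with the young group share the same 5 young libraries. The order of the 4 means was the order of age for *Cldn4* and *Cldn7*. No pair of ages was called for any member, so that these orders were not established by the test.

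The members differed in their spread between animals of one age. The SD within an age group was 0.183 on the log2 scale for *Tjp3*, 0.188 for *Cldn4*, 0.189 for *Cldn7*, 0.218 for *F11r* and 0.234 for *Tjp1*. It was 0.414 for *Ocln*, 0.433 for *Cgn* and 0.489 for *Cldn1*, compared with a median of 0.387 over all tested genes. *Cldn23* had an SD of 1.2, which is 2.3-fold. Low counts spread more, so each gene was also set beside the 500 tested genes nearest to it in mean normalized count. The SD of *Cldn23* was larger than that of 100% of its 500 nearest genes, whose median was 0.252, and the SD of *Cgn* was larger than that of 95.8% of them. For the other 7 members this share ran from 25.4% for *Tjp3* to 67.4% for *F11r*.

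**Figure D3:**
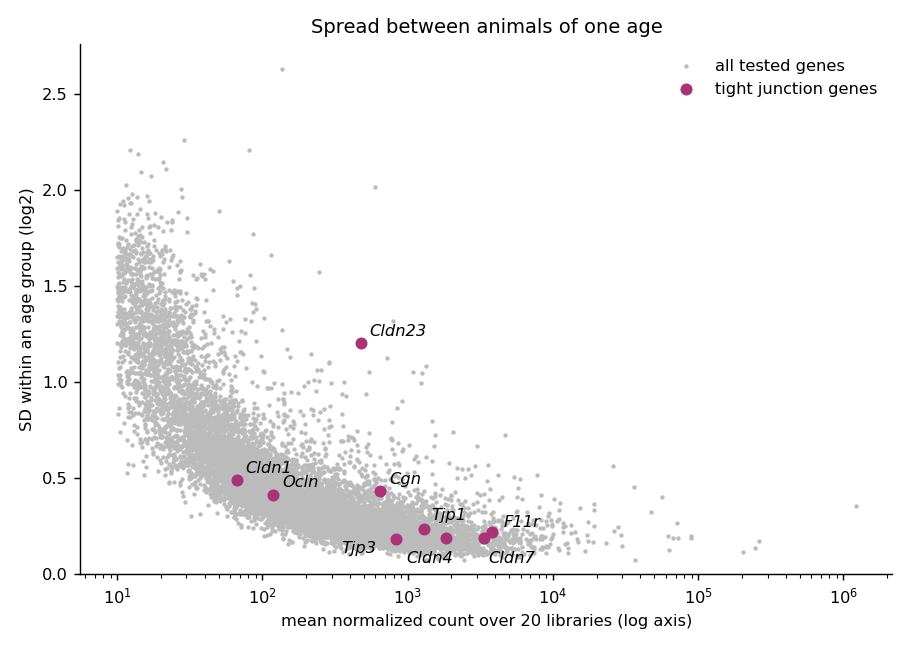
SD of the log2 values between animals of one age (y axis) against the mean normalized count (x axis, log scale) for 11288 tested genes (grey) and the 9 tight junction genes (purple). *Cldn23* lies above the genes of similar abundance at an SD of 1.2, and 8 members lie at 0.489 or less.

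*Cldn23* and *Cgn* were high and low in the same animals. Each value was taken as its deviation from the mean of its age, so that differences between ages play no part. Over the 20 libraries, Pearson's r was 0.902 (permutation p = 1e-05) and Spearman's rho 0.911 (p = 1e-05), the smallest p that 100000 permutations within ages can give. Adjusted over the 36 pairs of members, both were 0.00036, and without the 2 libraries farthest from the median of *Cldn23* r was 0.877. No other pair passed the adjustment. The next were *Cldn23* with *Tjp3* (r = 0.593, p = 0.0243, adjusted p = 0.293, rho = 0.543, p = 0.0357, adjusted p = 0.429, r = 0.574 without the 2 farthest libraries) and *Cgn* with *Tjp3* (r = 0.549, p = 0.0326, adjusted p = 0.293, rho = 0.493, p = 0.0426, adjusted p = 0.429, r = 0.458). At the other end, *Cldn23* and *Cldn7* gave r = −0.476 (permutation p = 0.0823, adjusted p = 0.423, rho = −0.368, p = 0.164, adjusted p = 0.525, r = −0.267). A correlation of 0.5 or more in size was found in 11.1% of the pairs of members and in 9.59% of all pairs of tested genes, and the median r over the 36 pairs was 0.03.

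**Figure D4:**
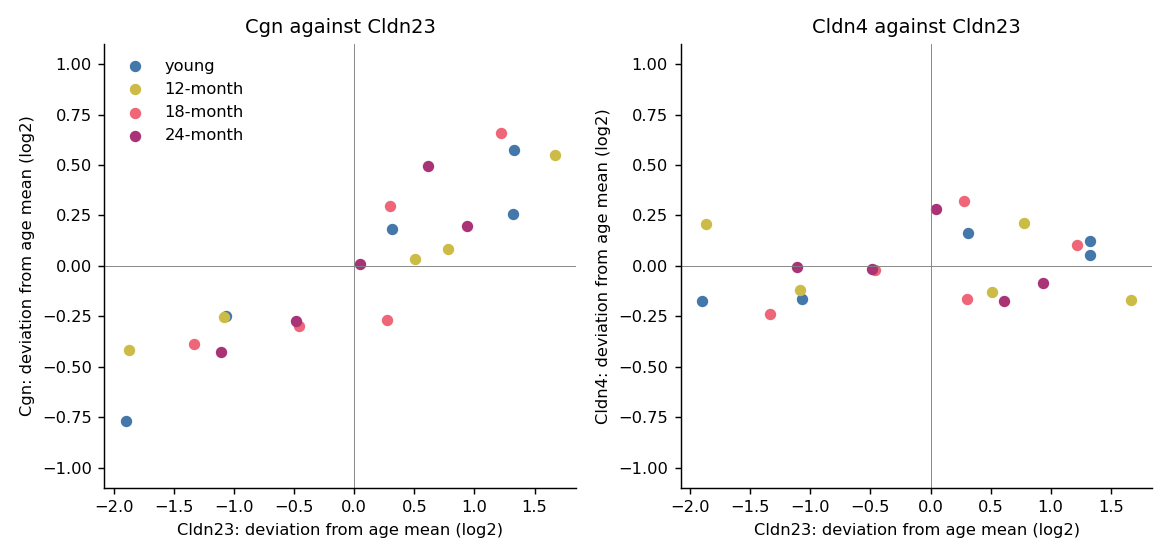
Deviation of *Cgn* (left) and *Cldn4* (right) from the mean of its age (y axis, log2) against the deviation of *Cldn23* (x axis, log2), each point is 1 of 20 libraries, coloured by age. *Cgn* follows *Cldn23* at every age (r = 0.902), and *Cldn4* gives r = 0.19.

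**Figure D5:**
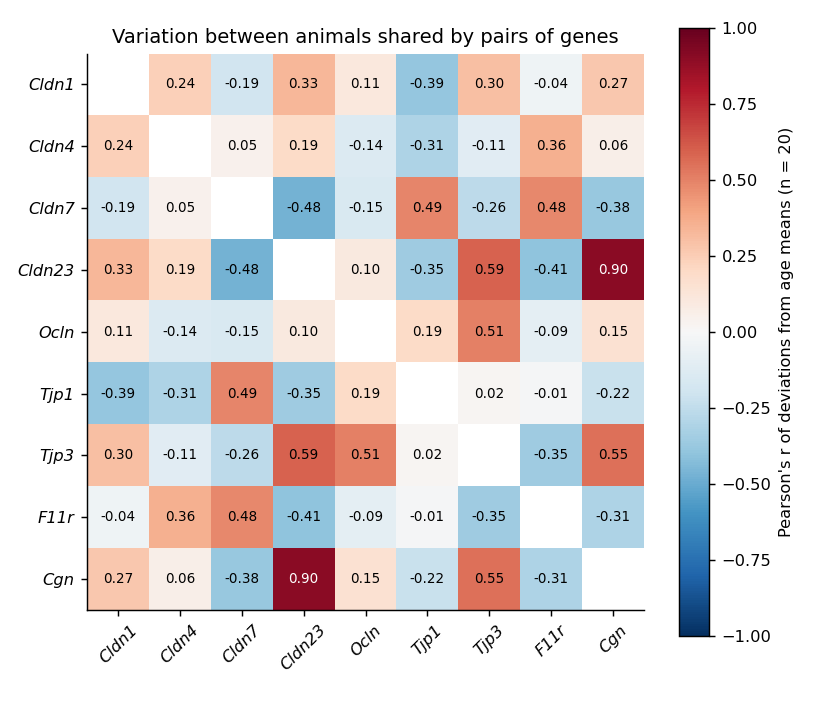
Pearson's r of the deviations from age means for each of the 36 pairs of genes (colour and number, n = 20 libraries). The cell of *Cldn23* and *Cgn* is the darkest at 0.90, and the lowest is −0.48 for *Cldn7* and *Cldn23*.

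The pattern of *Cldn23* was not particular to the junction. *Cgn* was 92nd by r with *Cldn23* among the 11287 other tested genes, and 99 of these had r of 0.9 or more and 7 had r of −0.9 or less. The most similar were *Cnep1r1* (r = 0.978) and *Fam83a* (r = 0.976) for *Cldn23*, and *Fam83a* (r = 0.936) and *Fryl* (r = 0.933) for *Cgn*, over 20 libraries that share their depth and handling. The main axis of variation between animals of one age held 15.98% of the variance of all tested genes, and *Cldn23* was 5th by its r with this axis (0.962) and *Cgn* 165th (0.88). Each other member also had its closest genes. They were *Lxn* (r = 0.836) and *Eps15* (0.746) for *Cldn1*, *Cdc34* (0.72) and *Rnpepl1* (0.698) for *Cldn4*, and *Ptpra* (0.858) for *Cldn7*. They were *Ntn1* (0.799) and *Pld2* (0.729) for *Ocln*, *Itpkc* and *Wapl* (both 0.824) for *Tjp1*, *Zfp317* (0.898) and *Chp1* (0.853) for *Tjp3*, and *Spag7* (0.858) and *Dusp3* (0.847) for *F11r*. No member was among the 2 closest genes of another member. The main axis gave r = 0.578 for *Tjp3*, −0.479 for *F11r* and −0.455 for *Cldn7*, and between −0.297 and 0.163 for the other 4 members.

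*Cldn23* and *Cgn* were also compared with properties of the libraries. For both genes, 13 such measures were compared, and p-values were adjusted over all 26. Depth passed for neither gene, and the slopes on transcript length and GC content passed for *Cldn23*. With reads on genes, r was 0.46 for *Cldn23* (permutation p = 0.0655, adjusted p = 0.189, rho = 0.505, p = 0.0416, adjusted p = 0.12, r = 0.409 without the 2 farthest libraries). With the slope of a library on transcript length, r was −0.641 (permutation p = 0.00459, adjusted p = 0.0239, rho = −0.68, p = 0.0035, adjusted p = 0.0182, r = −0.535), and with its slope on GC content −0.585 (permutation p = 0.0111, adjusted p = 0.0482, rho = −0.618, p = 0.00991, adjusted p = 0.0426, r = −0.46). For *Cgn*, r was 0.457 with reads on genes (permutation p = 0.0753, adjusted p = 0.196, rho = 0.456, p = 0.0678, adjusted p = 0.176, r = 0.467). It was −0.523 with the slope on transcript length (permutation p = 0.0256, adjusted p = 0.0833, rho = −0.532, p = 0.022, adjusted p = 0.0715, r = −0.452). With the slope on GC content *Cgn* gave r = −0.527 (permutation p = 0.0171, adjusted p = 0.0634, rho = −0.573, p = 0.0115, adjusted p = 0.0426, r = −0.572), which passed by rho and not by r. With both trends removed from the libraries, r of *Cldn23* with *Cgn* was 0.917. Summed markers of the corneal epithelium, basal layer, apical layer, conjunctiva, keratocytes, leukocytes, vessels and melanocytes gave r between −0.413 and 0.34 with *Cldn23*, and adjusted p-values of 0.278 or more, and between −0.402 and 0.181 with *Cgn*, with adjusted p-values of 0.275 or more.

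Both remaining marker lists passed. The early stress response list gave r = 0.768 with *Cldn23* (permutation p = 8e-05, adjusted p = 0.000693, rho = 0.767, p = 0.00021, adjusted p = 0.00182, r = 0.738 without the 2 farthest libraries), of which the heat shock gene *Hspa1b* alone gave 0.878, *Hspa1a* 0.292, *Fos* −0.419 and *Jun* −0.202. The Schwann cell list gave r = −0.881 (permutation p = 1e-05, adjusted p = 0.00013, rho = −0.895, p = 2e-05, adjusted p = 0.00026, r = −0.83). At least 98.5% of its sum was *Mbp* in every library, and the defining markers *Sox10* and *Cdh19* had at most 7 and 2 reads in any library. Both lists moved the same way with *Cgn* (r = 0.745 and −0.81). The part of these measures in the values of *Cldn23* was not tested.

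With the main axis as a covariate, an alternative chosen after the data were seen, *Cldn23*, *Cgn* and *Tjp1* were called for 24 vs. 12 months (adjusted p = 0.000234, 0.00927 and 0.0442), where 5.79% of all tested genes were called. *Cldn23* was also called lower at 12 months than in the young group (adjusted p = 0.0398, background 1.51%) and higher at 18 than at 12 months (adjusted p = 0.0328, background 0.372%). The test for any age difference then called *Cldn23* and *Cgn* (adjusted p = 0.000225 and 0.0394, background 5.36%). The score averages 0 within each age, so the fold changes stayed the same, and the SE of *Cldn23* went from 0.59 to 0.18. The axis was computed from these deviations, with *Cldn23* among the genes closest to it, so that this fit is no independent test.

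Other genes of the junction were tested in the same fit. Of 20 other claudins listed, 19 were in the table and 4 passed the filter. The 15 below it had at most 16 reads in any library, and 9 of them at most 5. Of those tested, *Cldn3*, a claudin that seals the space between cells, had normalized counts of 469, 556, 568, 522 and 564 in the young group and 445, 412, 454, 419 and 448 at 24 months. All 24-month libraries lay below all young ones (groups apart without overlap in either direction: 2.81% of all tested genes). The log2 change was −0.30 (SE 0.12, unadjusted p = 0.017, adjusted p = 0.359), and the gene was not called. The exact permutation test gave p = 0.00794. Any 5 against 5 libraries without overlap give this p, so that it restates the separation and adds no further support. The 12-month and 18-month libraries, at 411 to 517 and 424 to 530, overlapped both groups. *Cldn8*, *Cldn12* and *Cldn17* had group means between 10.8 and 51.1 normalized counts, log2 changes at 24 months of 0.17, 0.11 and −0.23, and adjusted p-values of 0.948 or more.

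Over all 7 lists of other junction genes, 52 of 78 genes were tested and 0 were called in any comparison. Between 0% and 1.01% of all tested genes were called in these comparisons, so that 0 of 52 is not a result about these genes. At 24 months against the young group, 27 estimates lay above 0 and 25 below, with a median log2 change of 0.02 (0.01 over all tested genes), and 7 of 52 had an unadjusted p under 0.05 (9.97% of all tested genes). Besides *Cldn3* these were the scaffold genes *Magi2* (log2 change −0.97, SE 0.29, adjusted p = 0.139), *Magi3* (−0.34, SE 0.13, adjusted p = 0.36) and *Amotl2* (0.45, SE 0.15, adjusted p = 0.223), the polarity gene *Llgl2* (0.46, SE 0.21, adjusted p = 0.456), *Ybx3*, whose protein binds zonula occludens 1 (−0.24, SE 0.11, adjusted p = 0.492), and *Grhl1*, a grainyhead factor (0.56, SE 0.19, adjusted p = 0.225). For 24 vs. 12 months, 13 of 52 had an unadjusted p under 0.05 (14.7% of all tested genes), and the smallest adjusted p was 0.124, for *Llgl2*. Of the 4 genes tested for tricellular and occludin-like proteins, 0 had an unadjusted p under 0.05 at 24 months, and *Marveld2*, which encodes tricellulin, had the smallest (adjusted p = 0.839).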

How the data were processed

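Corneal epithelium of 20 mice was sequenced from the 3′ end, with 1 library per animal. According to the methods, the authors used cutadapt for trimming, STAR for alignment to GRCm38, HTSeq for counts per gene and the size factors of DESeq2 for normalization. The deposited tables give log2 values, made by the authors from the normalized count after addition of a pseudocount of 1, and 100% of these gave back whole reads (tolerance 0.01 reads). They also hold the authors' own fold changes and p-values, which were not used.

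Members and lists were chosen with earlier results of these data known. Genes whose mean normalized count reached 10 were fitted by age with limma 3.58.1 in R 4.3.3 (variance trend, Benjamini-Hochberg adjustment over all 11288 genes). The 4 ages entered 1 fit; aged vs. young and the slope on age had their own. Fold changes are on the log2(value + 1) scale. Permutation tests used scipy 1.17.1. By rule, the text names the 9 members, the other claudins tested, other junction genes called in any comparison, and the 2 genes most similar to a member; *Magi2*, *Magi3*, *Amotl2*, *Llgl2*, *Ybx3*, *Grhl1*, *Marveld2* and single markers were added with their values known. Some results are not reported here. All 40 pairs of libraries of one age differed beyond counting error. Alternatives covered normalization, filters, pseudocount, fold threshold, the groups fitted, a replicate block, voom on recovered reads and leaving out each library. The fit was tested on simulated data.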

Additional observations from a re-analysis of the deposited data

Results flagged for a closer look

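The values of each member and each marker list were checked in every group of 5 animals for a library whose gap to its nearest neighbour takes up most of the range of the group. Of 76 groups, 8 held such a library, and about 1 in 20 groups does so by chance. Among the members there were 3 in 36 groups. *Cldn1* was 112.6 normalized counts in 18-month replicate 2, against 57.3 to 71.7 in the other 18-month libraries. *Cldn7* was 4128 in 12-month replicate 5, against 2957 to 3270. *Tjp3* was 995 in 18-month replicate 4, against 752 to 815. In fits that each left out 1 of these libraries, 0 of 9 members were called in any comparison. Between 0 and 130 of the 11288 tested genes were called in these fits, so that 0 of 9 is not a result about these genes.

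Among the marker lists, apical layer markers summed to 19510 in 12-month replicate 5, which was also the high *Cldn7* library, against 14250 to 15500 in the others of its age. Keratocyte markers summed to 1550 in 12-month replicate 1 (683 to 934 in the others) and to 1036 in 24-month replicate 5 (325 to 506). Melanocyte markers summed to 1049 in 12-month replicate 3 (75.4 to 132). Early stress response markers summed to 5828 in young replicate 1 (10340 to 11650), which also held the lowest young values of *Cldn23* and *Cgn*, 95.4 and 345.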

How the results depend on the processing

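The count of members called stayed at 0 in all 9 comparisons under each of the other settings that applied, namely quantile normalization, no filter, a filter at a mean of 50, only the groups compared, no fold threshold, 1.5-fold, pseudocounts of 0.1 and 10, voom, the replicate block, and fits without any 1 of the 20 libraries. The fold thresholds do not apply to the tests for any age difference and for the slope. With the main axis of variation as a covariate, chosen after seeing the data, it was 1 for 12-month vs. young, 1 for 18 vs. 12 months, 3 for 24 vs. 12 months, 2 for any age difference and 0 in the other 5. Over all tested genes that covariate moved the count from 60 to 170, from 1 to 42, from 22 to 654 and from 102 to 605 in these 4 comparisons. It moved 76 to 122 for 18-month vs. young, 88 to 278 for 24-month vs. young, 0 to 2 for 24 vs. 18 months, 114 to 181 for aged vs. young and 81 to 213 for the slope. With the trend on GC content and transcript length removed, also chosen after seeing the data, 0 members were called and the count over all genes for 24 vs. 12 months was 26. For 24 vs. 12 months the count over all genes was also 0 with no filter, 35 with a filter at a mean of 50, 11 with only the groups compared and 11 with the replicate block. For 12-month vs. young it was 39 with only the groups compared and 38 with voom. For 18 vs. 12 months it was 0 in place of 1 under quantile normalization, both other filters, only the groups compared, the replicate block, a pseudocount of 10 and voom.

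Log2 changes against the young group changed sign, none of them called, where the estimate was close to 0: *Cldn1* at 18 months under voom (−0.0367), *Cldn7* at 12 months (−0.0248) and *Ocln* at 12 months (0.0104) under quantile normalization. Leaving out 1 library gave ranges of −0.26 to 0.16 for *Cldn1* at 18 months and −0.29 to 0.14 at 24 months, −0.0636 to 0.0907 for *Cldn7* at 12 months and −0.00598 to 0.148 at 18 months, −0.32 to 0.49 for *Cldn23* at 18 months, −0.20 to 0.16, −0.283 to 0.0798 and −0.0718 to 0.324 for *Ocln* at the 3 ages, −0.08 to 0.11 for *Tjp1* at 18 months, −0.0961 to 0.0606 and −0.0234 to 0.14 for *Tjp3* at 12 and 18 months, and −0.13 to 0.20 for *Cgn* at 18 months. The cause of these changes was not tested.

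What the replicate numbers stand for is not given in the sources used here. Libraries of the same number at different ages gave a median r of 0.00775 over 30 pairs, from −0.303 to 0.159. The median was 0.00352 for libraries of other numbers, and 3 of 20 libraries correlated best with their own number. Such correlations cannot show whether animals of the same number shared a day or a cage. With the replicate block, 0 of 9 members were called, with a smallest adjusted p of 0.221 for 24 vs. 12 months.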
